A study of Mus musculus with 8 samples.

Results

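The genes described here act in homologous recombination and in the Fanconi anemia pathway, with the checkpoint kinases that signal DNA damage. They are 37 genes found by symbol in the gene tables of cultured mouse keratinocytes (KCs), and each of the 37 symbols matched 1 gene of the 12590 that had enough reads to be tested. All 8 samples held RNA of KCs prepared from the tail of adult C57BL/6 mice (C57BL/6J in the paper) of Wildtype genotype. The cells were grown untreated in serum-free KC medium with low calcium. The samples fell into 2 groups, 4 after 1 week of culture and 4 after 3 weeks. They came from 4 independent experiments by the series' design text. The question was how the RNA of these repair genes differs between the earlier and the later culture.

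Homologous recombination mends double-strand breaks by copying the sister chromatid, so it works mainly in cells that replicate or have replicated their DNA. Broken ends are resected to single strands, BRCA1 and BRCA2 help a recombinase onto them, paralogs of this recombinase support the filament, and the joint molecules that form are resolved by helicases and nucleases. The Fanconi core complex adds ubiquitin to the pair FANCD2 and FANCI at replication forks blocked by crosslinks, and the kinases ATM and ATR hold the cell cycle while repair goes on. In epidermis, proliferating KCs lie in the basal layer, and many of these genes are known to be expressed most strongly in cycling cells.

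Libraries held between 13896807 and 20026084 reads on exons at 1 week and between 14096649 and 18127283 at 3 weeks. The KC genes Krt5 and Krt14 had mean RPKM values (read counts divided by exon length and library depth) of 6170 and 6941 at 1 week. All 8 KC markers had reads, the lowest being Krt15 with 1.01 ± 0.489 RPKM at 1 week (SD, n = 4), and 2 of them, Krt5 and Itga6, were lower at 3 weeks. The markers of fibroblasts, leukocytes and endothelial cells summed to at most 5.15, 4.55 and 0.559 RPKM in any sample, and 1 of the 7 fibroblast markers, Pdgfrb, fell (log2 fold change -1.74, SE 0.40, edgeR adjusted p = 0.0102). Cd207 of Langerhans cells had 0 reads in all 8. The 7 melanocyte markers summed to between 3.61 and 21.5 RPKM at 1 week and between 1.66 and 6.04 at 3 weeks, and 1 of the 5 that were tested, Pmel, fell (log2 fold change -2.06, SE 0.59, edgeR adjusted p = 0.0266). The part of melanocytes in the results was not tested. 1 library stood apart. In replicate 3 at 3 weeks, the 515 genes with a coding sequence over 5000 bases lay at a median of -0.98 (log2) from their group mean, against 0.30 for the 3877 genes under 1000 bases. In the other 3 libraries at 3 weeks the long genes lay at 0.40, -0.09 and 0.71, and at 1 week between -0.36 and 0.28. Without this library, Trp53bp1, Fancm, Atm and Atr, all over 5000 coding bases, gave log2 fold changes of 0.17, -0.32, -0.43 and -1.10 (edgeR adjusted p = 0.492, 0.620, 0.124 and 0.00441), and Blm gave -2.44 (adjusted p = 0.00130).

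**Figure D1:**
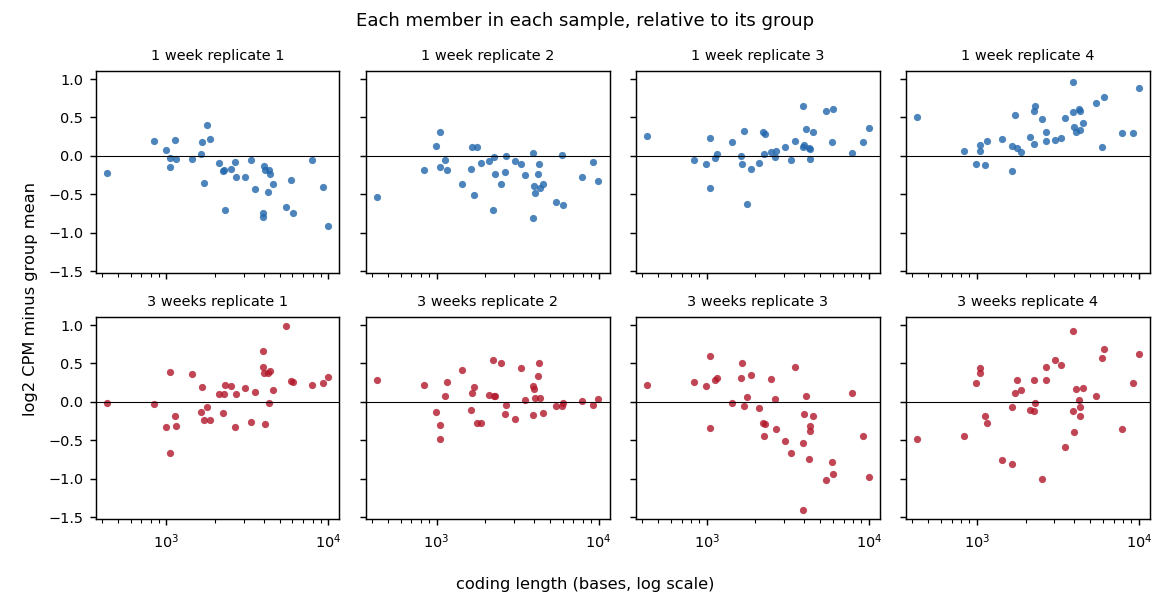
Difference of each of the 37 members from its group mean (log2 CPM, TMM scaled, vertical axis) against the length of its coding sequence (bases, log axis), in 1 panel per sample, with 1 week in blue and 3 weeks in red. In replicate 3 at 3 weeks Rad50 (3936 bases) is the lowest point at -1.41, and the members over 5000 bases lie below 0 except Atr, which lies at 0.11.

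By the test across all genes (edgeR, Benjamini-Hochberg adjusted p under 0.05), 27 of the 37 members were lower at 3 weeks and 0 were higher. Of all tested genes, 17.0% were called lower and 15.7% higher, so that 48.0% of all calls were higher (29.9% with limma on log2(RPKM + 0.1), which also called 0 members higher). Without the library that was low in long genes, 26 members were lower (20.8% of the genes tested then). No member was higher at an unadjusted p under 0.05 either, and DESeq2 also called 0 members higher. The median log2 fold change of the members was -1.29, against 0.03 for all tested genes. Of the 27, 14 fell at least 4-fold and 7 at least 8-fold, where 3.00% and 1.12% of all tested genes did so. Of these 7, Clspn, Exo1, Chek1, Rad54b and Fancd2 held 4 to 8 reads in their lowest 3-week library, so their folds are imprecise. The RPKM values of the 2 groups did not overlap, with 3 weeks lower, for 26 members. This was the case for 26.2% of all tested genes. On the RPKM scale (log2, with 0.1 added) the median of all tested genes lay at -0.16, so RPKM changes are to be read against that shift. In bulk RNA, fewer cycling cells and less of these RNAs in each cell cannot be told apart. The p-values rest on the spread between 4 samples per group.

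Sample by sample, the median of the members was 1.41, 1.54, 2.04 and 2.35 RPKM at 1 week and 0.606, 0.362, 0.486 and 0.471 RPKM at 3 weeks, so the groups lay far apart. At 1 week, 4 members had a mean under 1 RPKM, and at 3 weeks 25 members did. Levels also differed within the first group, since replicate 4 held the highest 1-week value of 27 members, against 26.3% of all tested genes. The genes of a proliferation list were high in the same samples. Their summed RPKM was 358, 309, 552 and 628 at 1 week and 94.3, 106, 96.3 and 59.5 at 3 weeks. Of these 20 genes, 17 fell and 0 rose, with a median log2 fold change of -2.62, and the largest falls were those of Ccna2 (cyclin A2, -3.90), Ccnb1 (cyclin B1, -3.62) and Mcm6 (a subunit of the replicative helicase, -3.37). The summed RPKM of the melanocyte markers was 5.15, 3.61, 16.3 and 21.5 at 1 week and 1.66, 6.04, 3.36 and 4.02 at 3 weeks, so replicates 3 and 4 at 1 week were the highest in both lists. The part of cell cycling in the falls of the repair genes was not tested.

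In the deposited names, the number 47 occurs only at 1 week and 57 only at 3 weeks. The other 3 numbers, 46, 49 and 90, occur at both times and were taken as shared preparations. Within these, 31, 35 and 34 of the 37 members were lower at 3 weeks, with median log2 differences of -1.05, -1.12 and -1.55, against 50.2%, 50.1% and 50.2% of all tested genes. The median log2 difference of all tested genes was -0.0 in each preparation, so a share of them near 50% follows from that median. In all 3 preparations 29 members were lower, as were 31.2% of all tested genes.

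**Figure D2:**
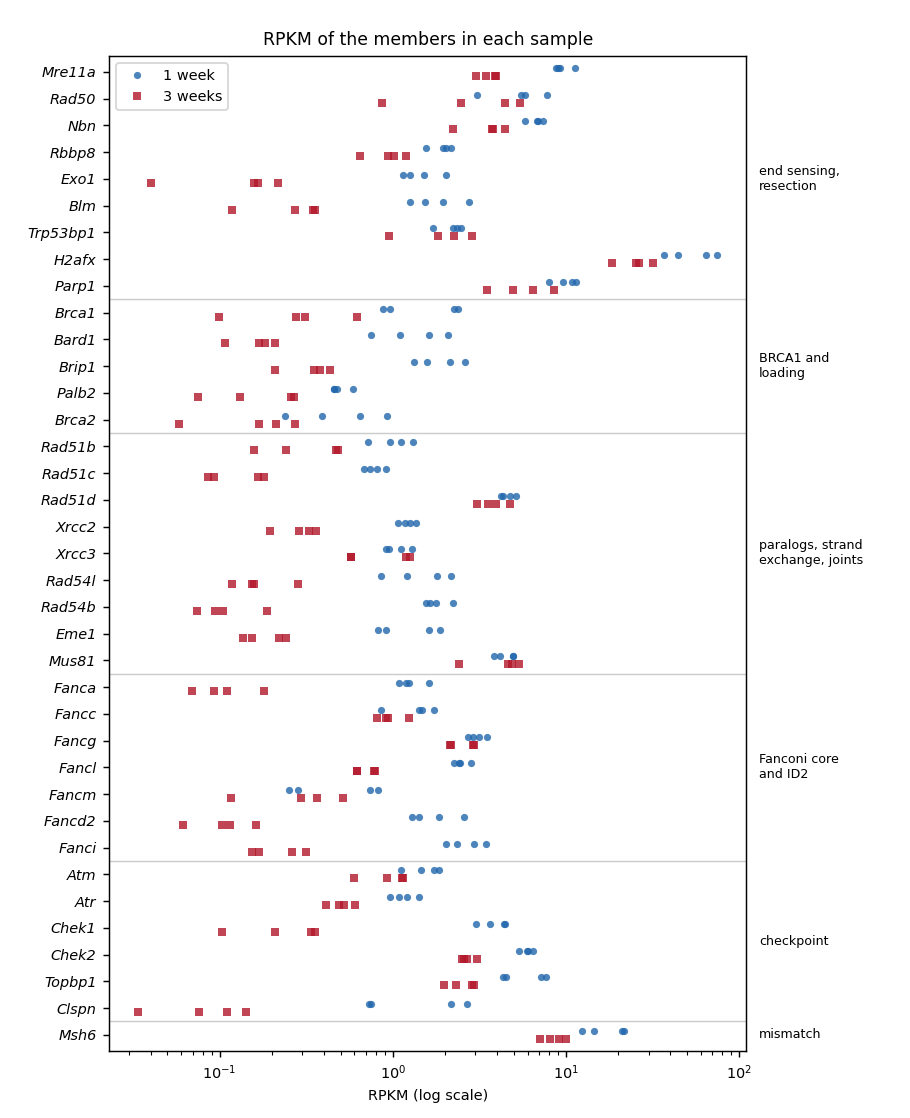
RPKM (log axis) of each of the 37 members in each sample, 4 blue circles for 1 week and 4 red squares for 3 weeks, grouped by role. The groups separate for 26 members, Clspn, Fancd2, Rad54b, Chek1, Fanci and Fanca among them, and overlap for Rad51d, Xrcc3, Mus81, Fancg and others.

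Since 27 members moved together, their promoters were searched for the E2F-like words TTTCCCGC and TTTGGCGC, the cell cycle homology word TTTGAA and the NF-Y word CCAAT, on both strands, in the 300 bases from 250 before to 50 after the gene start (RefSeq, GRCm38.p6). Promoters were found for 28 members. TTTCCCGC occurred in 6 of these 28, in Bard1, Brca2, Chek2, Fancg, Msh6 and Rad51c, and in 2.45% of the promoters of all tested genes. It was in 5 of the 20 members with a promoter that fell and in 1 of the 8 that were not called, against 4.49% of the promoters of all genes called lower. TTTGGCGC was in none of the 28, and in 1.16% of tested genes. TTTGAA was in 3 (Bard1, Eme1 and Rad51b) and in 14.4% of tested genes, and CCAAT was in 15 and in 43.1%. 4 promoters are shown with these words in capitals, 5′ to 3′ in the direction of the gene. Bard1 and Chek2 fell and carry TTTCCCGC. Clspn had the largest fall in the main edgeR fit and, of the words searched, carries only CCAAT. Other forms of the E2F-like word were not searched, so these counts do not cover every E2F-like site. Fancg carries TTTCCCGC but did not pass the test. A word on the opposite strand appears as its reverse complement, GCGGGAAA or ATTGG. They lie at chr1:71102923-71103222, minus strand (Bard1), chr5:110839733-110840032, plus strand (Chek2), chr4:126556730-126557029, plus strand (Clspn) and chr4:43010252-43010551, minus strand (Fancg).
Bard1: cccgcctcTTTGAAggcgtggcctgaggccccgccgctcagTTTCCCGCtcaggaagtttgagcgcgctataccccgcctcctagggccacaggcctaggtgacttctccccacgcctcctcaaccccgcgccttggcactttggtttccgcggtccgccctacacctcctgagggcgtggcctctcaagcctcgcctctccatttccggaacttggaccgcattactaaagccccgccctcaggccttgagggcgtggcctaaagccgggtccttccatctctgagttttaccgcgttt
Chek2: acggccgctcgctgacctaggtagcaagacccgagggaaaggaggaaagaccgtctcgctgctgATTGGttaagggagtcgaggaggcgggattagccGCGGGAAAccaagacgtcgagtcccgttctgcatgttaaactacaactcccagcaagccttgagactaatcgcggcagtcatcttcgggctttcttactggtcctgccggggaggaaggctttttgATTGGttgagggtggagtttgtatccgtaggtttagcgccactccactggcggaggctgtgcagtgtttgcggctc
Clspn: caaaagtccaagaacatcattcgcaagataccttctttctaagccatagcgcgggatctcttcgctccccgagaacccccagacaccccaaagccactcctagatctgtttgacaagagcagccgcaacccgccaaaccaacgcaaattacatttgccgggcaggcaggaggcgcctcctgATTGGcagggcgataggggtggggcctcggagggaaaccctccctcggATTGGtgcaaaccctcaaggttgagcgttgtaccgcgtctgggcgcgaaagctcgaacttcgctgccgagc
Fancg: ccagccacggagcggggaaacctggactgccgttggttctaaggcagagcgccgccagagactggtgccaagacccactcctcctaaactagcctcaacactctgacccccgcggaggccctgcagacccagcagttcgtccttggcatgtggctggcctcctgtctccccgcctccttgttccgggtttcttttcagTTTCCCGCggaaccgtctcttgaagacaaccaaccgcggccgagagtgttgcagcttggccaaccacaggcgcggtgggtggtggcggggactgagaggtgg
A match is a word in the sequence and was not tested as a binding site. TTTCCCGC starts 209 bases before the start of Bard1, 152 before that of Chek2 and 52 before that of Fancg.

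Of the 9 genes that sense and resect DNA ends, 6 fell and 3 did not pass the test. MRE11, RAD50 and NBN form the complex that first binds a broken end. Mre11a, its nuclease (chr9:14784654-14837123), had RPKM values of 8.76, 9.21, 9.04 and 11.3 at 1 week and of 3.93, 3.91, 3.03 and 3.43 at 3 weeks. Every 3-week sample was below every 1-week sample, and the RNA fell 2.40-fold (log2 fold change -1.26, SE 0.13, edgeR adjusted p = 0.000377). Nbn, which brings ATM to the complex, fell from 6.71 ± 0.688 to 3.55 ± 0.932 RPKM (SD, n = 4; log2 fold change -0.77, SE 0.18, edgeR adjusted p = 0.0119). Rad50, the long ATPase subunit with 3936 coding bases, had 3.05, 5.51, 5.79 and 7.8 RPKM at 1 week and 4.46, 2.49, 0.872 and 5.43 at 3 weeks. Its groups overlapped, the low value of 0.872 belongs to the library that was low in long genes, and the difference did not pass the test (log2 fold change -0.61, SE 0.47, edgeR adjusted p = 0.352), nor without that library (log2 fold change -0.33, edgeR adjusted p = 0.487).

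Resection beyond the first cut depends on Exo1, an exonuclease, and on the helicase Blm. Exo1 was at 1.26, 1.14, 1.52 and 2.04 RPKM at 1 week and at 0.166, 0.217, 0.159 and 0.0404 at 3 weeks, down to 5 reads in the lowest library. This was the largest fall of the group (log2 fold change -3.17, SE 0.42, edgeR adjusted p = 0.000872). Blm decreased from 1.88 ± 0.66 to 0.273 ± 0.11 RPKM (SD, n = 4; log2 fold change -2.63, SE 0.35, edgeR adjusted p = 0.000872). Rbbp8, the cofactor that starts resection with MRE11, decreased from 1.93 ± 0.268 to 0.948 ± 0.227 RPKM (log2 fold change -0.87, SE 0.18, edgeR adjusted p = 0.00572). Introns of this gene, on chromosome 18, held between 1888 and 12677 reads a library against 133 to 504 on its exons, and with all reads on the gene Rbbp8 had a log2 fold change of -0.70 and did not pass (edgeR adjusted p = 0.379). H2afx, the histone variant phosphorylated around breaks, was the most abundant member per length, with 44.5, 37, 64.5 and 74.8 RPKM at 1 week and 25.4, 31.7, 26.3 and 18.4 at 3 weeks. All later samples were below all earlier ones (log2 fold change -0.95, SE 0.26, edgeR adjusted p = 0.0209), but the call was lost when replicate 3 or 4 at 1 week or replicate 1 at 3 weeks was left out (edgeR adjusted p = 0.0548, 0.0589 and 0.0545) and with the replicate number as a block (0.0660), at log2 fold changes of -0.87, -0.77, -0.93 and -0.92. The block of preparations taken as shared kept it (log2 fold change -1.20, edgeR adjusted p = 0.0233). Trp53bp1, which restrains resection, gave a log2 fold change of -0.01 (SE 0.27, edgeR adjusted p = 0.982), with 0.95 RPKM in the library low in long genes and 1.82 to 2.86 in the other 3. Parp1, a sensor of strand breaks, had a mean of 9.99 ± 1.53 RPKM at 1 week and 5.85 ± 2.16 at 3 weeks (SD, n = 4) and missed the threshold (log2 fold change -0.63, SE 0.23, edgeR adjusted p = 0.0655). It passed with replicate 4 at 3 weeks left out (edgeR adjusted p = 0.0109), under 4 of the other settings, and once the trend with coding length was removed (adjusted p = 0.00289).

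All 5 genes of the BRCA1 complexes and of recombinase loading fell, each more than 2-fold. Brca1 (chr11:101488764-101551955) encodes a ubiquitin ligase subunit that promotes resection and loading, and it was measured at 0.874, 0.962, 2.25 and 2.38 RPKM at 1 week and 0.622, 0.278, 0.0999 and 0.311 at 3 weeks. The spread was wide in both groups, with 2 high and 2 low samples at 1 week, yet the groups did not overlap (log2 fold change -2.15, SE 0.52, edgeR adjusted p = 0.0129). Without the library low in long genes the log2 fold change of Brca1 was -1.89 (edgeR adjusted p = 0.0174). Bard1, its obligate partner, whose promoter is shown above, went from 0.752, 1.11, 1.62 and 2.08 RPKM to 0.209, 0.183, 0.108 and 0.168 and fell 7.42-fold (log2 fold change -2.89, SE 0.36, edgeR adjusted p = 0.000674). Brip1, a helicase bound by BRCA1, fell from 1.92 ± 0.579 to 0.344 ± 0.0954 RPKM (SD, n = 4; log2 fold change -2.29, SE 0.31, edgeR adjusted p = 0.000907).

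Palb2 joins BRCA1 to BRCA2, and Brca2 encodes the loader of the recombinase. Both were low already at 1 week, the lowest and the third lowest member by mean RPKM. Palb2 was at 0.458, 0.456, 0.474 and 0.587 RPKM at 1 week and at 0.132, 0.257, 0.0746 and 0.269 at 3 weeks (log2 fold change -1.29, SE 0.36, edgeR adjusted p = 0.0223). Brca2 (chr5:150522630-150570329), with 9987 coding bases the longest member, was at 0.239, 0.388, 0.648 and 0.931 RPKM at 1 week and 0.212, 0.169, 0.058 and 0.274 at 3 weeks. Its lowest 1-week sample lay within the range at 3 weeks, and its call was the weakest of the 27 (log2 fold change -1.49, SE 0.50, edgeR adjusted p = 0.0469). It was lost under 10 of the 19 other settings, among them 6 of the 8 that leave out 1 sample (edgeR adjusted p up to 0.133), whereas the direction held in all 19. Without the library low in long genes the log2 fold change of Brca2 was -1.24 (edgeR adjusted p = 0.0665). Palb2 lost its call without replicate 1 or 4 at 1 week or replicate 1 at 3 weeks (edgeR adjusted p = 0.0501, 0.0611 and 0.0643). With a block for the 3 preparations taken as shared by both times, neither Palb2 nor Brca2 passed (edgeR adjusted p = 0.0547 and 0.0721).

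The 9 genes of recombinase paralogs, strand exchange and joint molecules split into 6 that fell and 3 that did not pass the test. The paralogs work in small complexes that support the recombinase filament. Rad51c (chr11:87376645-87404954) was at 0.743, 0.687, 0.81 and 0.918 RPKM at 1 week and 0.0857, 0.18, 0.167 and 0.0932 at 3 weeks, on 6 reads in the lowest library (log2 fold change -2.40, SE 0.32, edgeR adjusted p = 0.000891). Xrcc2 was at 1.37, 1.07, 1.18 and 1.26 RPKM at 1 week and 0.288, 0.362, 0.327 and 0.196 at 3 weeks (log2 fold change -1.88, SE 0.25, edgeR adjusted p = 0.000863). In both, every 3-week value lay below every 1-week value. Rad51b fell from 1.03 ± 0.246 to 0.339 ± 0.165 RPKM (SD, n = 4; log2 fold change -1.43, SE 0.40, edgeR adjusted p = 0.0236), a call lost without replicate 2 or 4 at 1 week or replicate 2 at 3 weeks (edgeR adjusted p = 0.0613, 0.0572 and 0.0682) and with the replicate number as a block (0.0514). The block of preparations taken as shared kept it (log2 fold change -1.70, edgeR adjusted p = 0.0306).

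By contrast, Rad51d, the paralog that pairs with XRCC2, was at 4.77, 5.15, 4.35 and 4.24 RPKM at 1 week and 3.05, 3.55, 3.95 and 4.73 at 3 weeks, with overlapping groups (log2 fold change -0.11, SE 0.17, edgeR adjusted p = 0.649). Xrcc3, the partner of RAD51C, was at 0.917, 0.953, 1.29 and 1.11 RPKM at 1 week and 1.19, 0.575, 0.576 and 1.26 at 3 weeks and gave a log2 fold change of -0.09 (SE 0.31, edgeR adjusted p = 0.844). Xrcc3 overlaps Klc1 on the opposite strand, and 26.7% of its reads were assigned uniquely. On unique reads the log2 fold change of Xrcc3 was -0.63 (edgeR adjusted p = 0.111), so its level is uncertain.

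The RNAs of the motor proteins of strand exchange fell steeply. Rad54b (chr4:11558922-11615805) was at 1.64, 1.55, 1.78 and 2.23 RPKM at 1 week and at 0.0742, 0.0947, 0.105 and 0.188 at 3 weeks, a 14.0-fold fall with no overlap (log2 fold change -3.81, SE 0.30, edgeR adjusted p = 0.000184). 62.4% of its reads were unique, and on these the log2 fold change of Rad54b was -3.89. Rad54l fell from 1.51 ± 0.588 to 0.179 ± 0.0726 RPKM (SD, n = 4; log2 fold change -2.92, SE 0.37, edgeR adjusted p = 0.000712). EME1 and MUS81 are the subunits of a nuclease that cuts joint molecules and forks. Eme1 was at 0.913, 0.826, 1.61 and 1.87 RPKM and later at 0.136, 0.242, 0.154 and 0.222 (log2 fold change -2.62, SE 0.37, edgeR adjusted p = 0.00114). Lrrc59 and Mrpl27 overlap it on the opposite strand, with medians of 8081.5 and 348 exon reads against 29 for Eme1. Mus81, its catalytic partner, was at 4.95, 4.93, 4.16 and 3.85 RPKM at 1 week and 4.86, 4.62, 5.34 and 2.4 at 3 weeks, with overlapping groups and the only positive value among the members (log2 fold change 0.13, SE 0.26, edgeR adjusted p = 0.745). The sign of Mus81 changed in the limma fits on RPKM (-0.10 on log2(RPKM + 0.1)), with the preparation block and with replicate 3 at 3 weeks left out, so no direction is given.

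**Figure D3:**
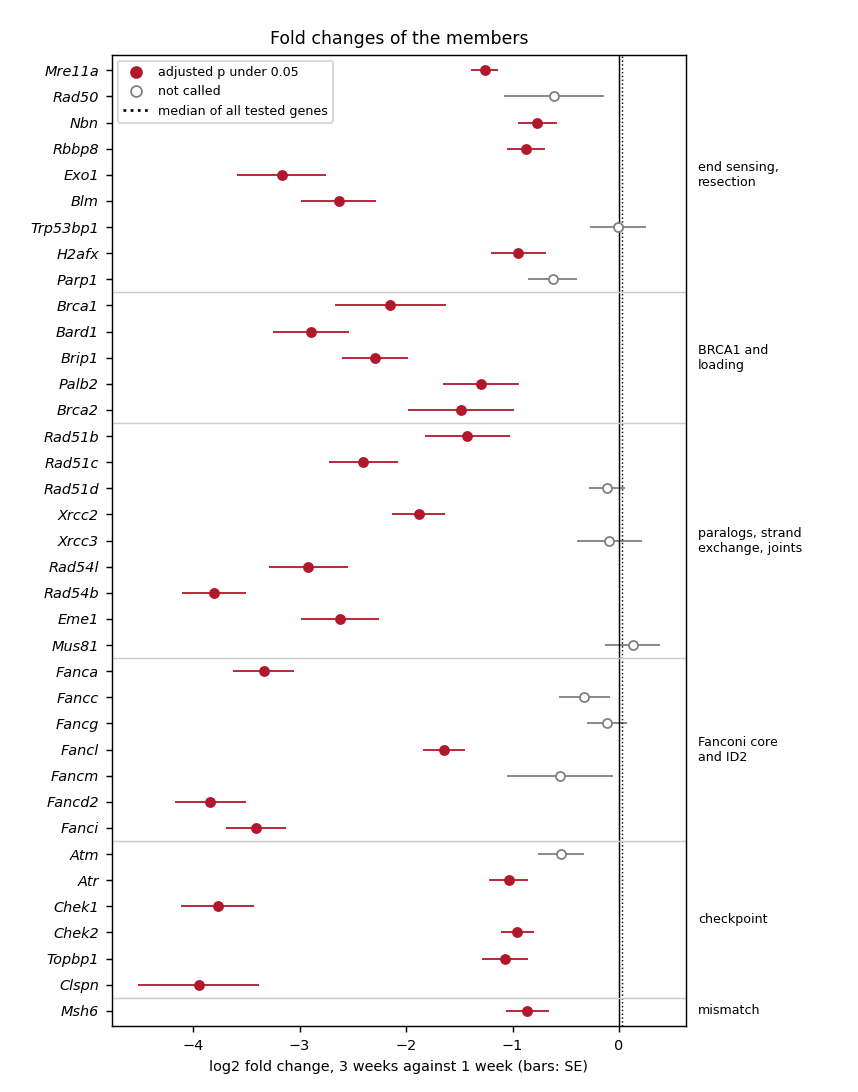
Log2 fold change at 3 weeks against 1 week for the 37 members (edgeR, 4 samples per group, horizontal axis), with bars for the SE, filled red points for an adjusted p under 0.05 and open points for the rest. 27 points are filled and all of these lie left of 0, from Clspn at -3.95 to Nbn at -0.77, and the dotted line is the median of all tested genes at 0.03.

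In the Fanconi group, 4 of 7 fell and 3 did not pass the test. The 2 genes of the clamp that receives ubiquitin had the largest log2 fold changes of the group. Fancd2 (chr6:113531682-113597017) was at 1.41, 1.28, 1.84 and 2.59 RPKM at 1 week and 0.162, 0.115, 0.0614 and 0.103 at 3 weeks (log2 fold change -3.84, SE 0.33, edgeR adjusted p = 0.000226), and Fanci at 2.36, 2.03, 2.96 and 3.46 RPKM at 1 week and 0.316, 0.263, 0.169 and 0.153 at 3 weeks (log2 fold change -3.41, SE 0.28, edgeR adjusted p = 0.000204). These are 14.3-fold and 10.6-fold falls, with 8 reads of Fancd2 left in the lowest library. Fanca, a core subunit, went from 1.09, 1.19, 1.24 and 1.61 to 0.11, 0.181, 0.0695 and 0.0932 RPKM (log2 fold change -3.34, SE 0.29, edgeR adjusted p = 0.000213). It overlaps Zfp276 and Gm20388 on the opposite strand, and on unique reads, 49.3% of the total, Fanca had a log2 fold change of -3.56. Fancl, the ubiquitin ligase of the core, fell 3.12-fold from 2.48 ± 0.241 to 0.704 ± 0.0938 RPKM (SD, n = 4; log2 fold change -1.64, SE 0.20, edgeR adjusted p = 0.000646).

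For the other 3 core genes the difference did not pass the test. Fancg, whose promoter is shown above, was at 3.52, 2.92, 2.74 and 3.17 RPKM at 1 week and 2.16, 2.13, 2.9 and 2.94 at 3 weeks (log2 fold change -0.11, SE 0.19, edgeR adjusted p = 0.682). Fancc had a mean of 1.37 ± 0.371 and 0.979 ± 0.186 RPKM (SD, n = 4; log2 fold change -0.33, SE 0.24, edgeR adjusted p = 0.326), with 47.8% unique reads and an edgeR adjusted p of 0.0746 on these. Over all settings the log2 fold change of Fancc lay between -0.67 and -0.20. Fancm, the translocase that anchors the core complex on DNA, was at 0.252, 0.284, 0.741 and 0.82 RPKM at 1 week and 0.365, 0.297, 0.117 and 0.515 at 3 weeks. Its 2 low samples at 1 week lay inside the range at 3 weeks (log2 fold change -0.55, SE 0.50, edgeR adjusted p = 0.425).

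Among the 6 checkpoint genes, 5 fell. The largest fall of all 37 members in the main edgeR fit was that of Clspn (chr4:126556935-126593903), the adaptor through which ATR activates CHK1. Clspn was at 0.731, 0.75, 2.17 and 2.67 RPKM at 1 week and 0.142, 0.11, 0.0339 and 0.0758 at 3 weeks. Replicates 3 and 4 at 1 week were well above replicates 1 and 2, and the lowest 3-week library held 4 reads. Clspn was 15.4-fold lower (log2 fold change -3.95, SE 0.57, edgeR adjusted p = 0.00128). With samples left out in turn, Clspn ranged from -4.25 to -3.57 and Rad54b from -4.102 to -3.625, so their order was not the same in every fit. Chek1 (chr9:36708482-36727065), the kinase itself, was at 3.65, 3.02, 4.4 and 4.46 RPKM at 1 week and 0.336, 0.354, 0.21 and 0.103 at 3 weeks and fell 13.6-fold (log2 fold change -3.77, SE 0.34, edgeR adjusted p = 0.000267).

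The apical kinases, their activator and the other effector had smaller log2 fold changes. Atr was at 1.08, 0.97, 1.21 and 1.42 RPKM at 1 week and at 0.606, 0.525, 0.492 and 0.409 at 3 weeks, without overlap (log2 fold change -1.04, SE 0.18, edgeR adjusted p = 0.00285). With the trend of coding length removed, Atr (7923 coding bases) missed the threshold (log2 fold change -0.94, edgeR adjusted p = 0.117). Topbp1, the activator of ATR, fell from 5.93 ± 1.77 to 2.53 ± 0.464 RPKM (log2 fold change -1.07, SE 0.22, edgeR adjusted p = 0.00598), and Chek2, the effector of ATM, from 5.94 ± 0.461 to 2.72 ± 0.241 RPKM (log2 fold change -0.96, SE 0.16, edgeR adjusted p = 0.00213; SD, n = 4). Atm was at 1.11, 1.46, 1.73 and 1.86 RPKM at 1 week and 1.13, 0.93, 0.601 and 1.15 at 3 weeks and did not pass (log2 fold change -0.54, SE 0.22, edgeR adjusted p = 0.0859). Whether Atm and Atr differ in their change was not tested.

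Msh6 recognizes base mismatches, and was the second most abundant member. It was at 14.6, 12.3, 21.7 and 20.9 RPKM at 1 week and 7.11, 9.07, 8.08 and 9.96 at 3 weeks, a fall without overlap (log2 fold change -0.86, SE 0.20, edgeR adjusted p = 0.012). Of the 6 other mismatch repair genes 5 fell, among them Msh3 (log2 fold change -1.12, SE 0.17, edgeR adjusted p = 0.00139), Pms1 (-0.88) and Pms2 (-0.88).

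Ratios of RPKM between genes whose products bind each other do not depend on the scaling between samples, and 12 such pairs were compared. In 6 of them both genes had at least 10 reads in every sample and were tested (exact permutation test, two-sided, adjusted over the 6 pairs). With 4 against 4 samples the smallest p is 0.0286, which for a single pair among the 6 becomes 0.171 once adjusted, so 1 pair alone could not pass, and none did. The ratio of Rad51d to Xrcc2 was 3.48, 4.81, 3.7 and 3.37 at 1 week and 10.6, 9.83, 12.1 and 24.2 at 3 weeks. These groups did not overlap, the mean log2 ratio differed by 1.80, and the exact permutation p was 0.0286, adjusted 0.171. A limma fit of the log2 ratios with the replicate number as a block called this pair (adjusted p = 0.00986), but these numbers pair the samples only in part. The ratio of Atr to Topbp1, at 0.25, 0.216, 0.169 and 0.184 at 1 week and 0.211, 0.226, 0.249 and 0.138 at 3 weeks, differed by -0.01 (log2; exact p = 0.943). For Brca1 and Bard1 the difference was 0.57 (exact p = 0.171), for Mre11a and Rad50 -0.46 (exact p = 0.486).

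Among the 6 pairs with fewer reads, which were not tested, 2 had groups without overlap. The ratio of Mus81 to Eme1 was 5.42, 5.96, 2.58 and 2.06 at 1 week and 35.7, 19.1, 34.6 and 10.8 at 3 weeks. That of Rad51c to Xrcc3 was 0.81, 0.72, 0.627 and 0.825 at 1 week and 0.072, 0.314, 0.289 and 0.0738 at 3 weeks, with the uncertainty in Xrcc3 given above. The overlap of Eme1 with genes on the opposite strand, also given above, limits the ratio of Mus81 to Eme1. In these pairs, as for Rad51d and Xrcc2, 1 partner fell and the other did not pass the test. Fancd2 and Fanci, which both fell, had a ratio of 0.598, 0.631, 0.624 and 0.748 at 1 week and 0.513, 0.436, 0.364 and 0.671 at 3 weeks, with overlap.

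**Figure D4:**
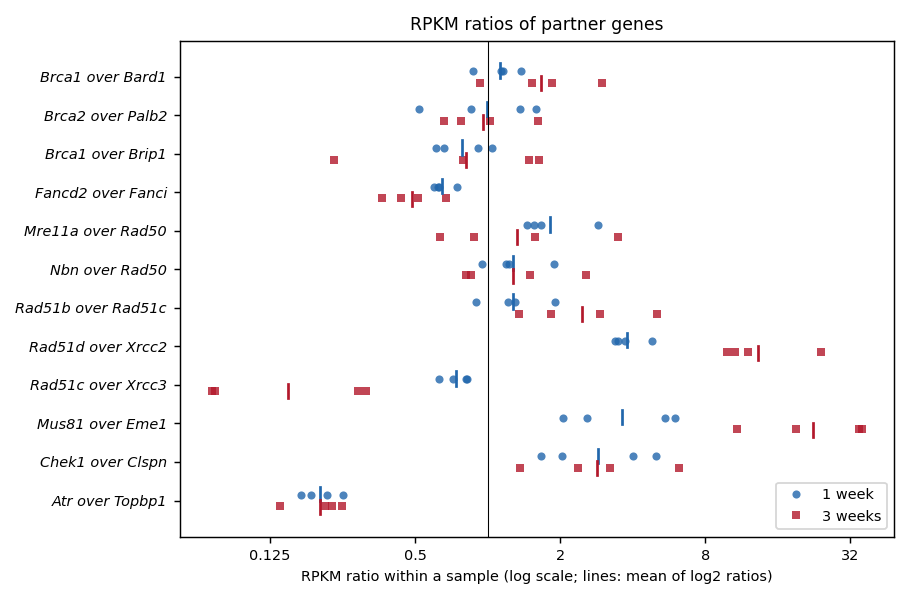
RPKM ratio within each sample for 12 pairs of genes whose products bind each other (log axis), 4 blue circles for 1 week and 4 red squares for 3 weeks, with short lines at the mean of the log2 ratios. The groups separate for Rad51d over Xrcc2, Rad51c over Xrcc3 and Mus81 over Eme1 and overlap for the other 9 pairs.

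Intron reads gave a second view of the same genes. 1 gene, Rbbp8, held most of them, and without it introns made up 1.81%, 1.44%, 1.70% and 1.75% of the reads of the other 36 members at 1 week and 2.22%, 1.90%, 3.54% and 3.01% at 3 weeks. The groups did not overlap, but the exon reads behind the later shares are fewer, and no test was made. Over all genes the share was between 1.48% and 2.03% at 1 week and between 1.49% and 2.38% at 3 weeks.

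Across the 37 members, the log2 fold change was nearly unrelated to coding length (Spearman rho -0.09) and weakly related to the mean RPKM at 1 week (0.24). Over all tested genes the same values were 0.03 (12135 genes with a coding length) and -0.16 (12590 genes). These describe the same 8 libraries across genes, which are not independent replicates.

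Other repair genes were described in the same way. Of 46 further genes of recombination, the Fanconi pathway and checkpoints, 26 fell and 0 rose (17.0% and 15.7% of all tested genes), with a median log2 fold change of -0.91. Rmi2, a partner of BLM, gave -3.68, Fignl1, a regulator of the recombinase filament, -3.36, Rad51ap1, a cofactor of the recombinase, -3.10, and Timeless, a fork protection factor, -3.06 (edgeR adjusted p from 0.000267 to 0.000662). The 3-week libraries held between 1 and 5 reads of Rmi2, which limits the precision of its fold. In base excision repair, 7 of 16 genes fell, namely Mutyh, Neil3, Ung, Tdg, Xrcc1, Parp2 and Fen1, and Polb, its DNA polymerase, rose (log2 fold change 0.54, SE 0.16, edgeR adjusted p = 0.0309).

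In nucleotide excision repair, 4 of 19 genes fell, among them Ercc8, Gtf2h2 and Gtf2h4, Xpa, a damage verification factor, rose (log2 fold change 0.76, SE 0.19, edgeR adjusted p = 0.0146), and the median was -0.17. Non-homologous end joining, which needs no sister chromatid, had 2 of 11 genes lower, those of the Ku subunits Xrcc5 (-0.92) and Xrcc6 (-1.31), with a median of -0.35. The share of genes called lower was 73.0% of the members, 83.3% of the other mismatch repair genes, 43.8% in base excision repair, 21.1% in nucleotide excision repair and 18.2% in end joining, the last 2 near the 17.0% of all tested genes. Whether the lists differ from each other was not tested.

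**Figure D5:**
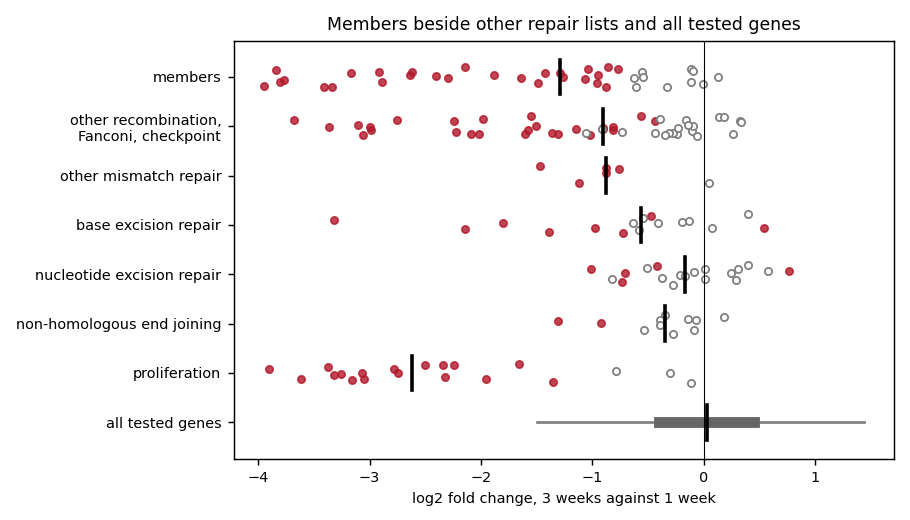
Log2 fold change at 3 weeks against 1 week (horizontal axis) of each gene in 7 lists, filled red where called and open where not, with a black bar at each list's median. For all tested genes the thick bar spans the 25th to 75th and the thin line the 5th to 95th percentile. The medians run from -2.62 for proliferation and -1.29 for the members to 0.03 for all tested genes.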

How the data were processed

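RNA of mouse KCs was measured in 4 samples after 1 week and 4 after 3 weeks of culture. The authors prepared poly(A) libraries with a NEBNext Ultra II RNA kit, sequenced single reads of 59 bases, and aligned them to GRCm38 with the CLC Genomics Workbench 12. Whether reads were counted by strand is not given in the sources used here. For the 10 members that overlap an expressed gene on the opposite strand, the reads of both thus cannot be told apart. These members are Mre11a, Trp53bp1, Xrcc3, Rad54l, Eme1, Fanca, Fancc, Fancl, Fanci and Msh6. The deposited counts are whole reads per gene on exons, unique exons, exon junctions, introns and the gene, without normalization. The authors also deposited RPKM values, written with decimal commas. Each deposited value was taken for 1 sample from its own table, and rows without a gene name numbered 0.

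Total exon read counts were filtered with filterByExpr, scaled by TMM and tested with edgeR 4.0.16 in R 4.3.3 (glmQLFit and glmQLFTest, Benjamini-Hochberg over all 12590 tested genes, threshold 0.05), without a block. All 37 members passed the filter. Alternatives used DESeq2 1.42.0, limma 3.58.1, upper-quartile scaling, other filters, read classes and pseudocounts (0.1 and 1), blocks, and each sample left out. An offset for coding length (longest coding sequence in the GENCODE annotation on GRCm38) was added after seeing the data. Partner ratios used exact permutation tests in SciPy 1.17.1 (Python 3.11.15), and promoters came from RefSeq on GRCm38.p6. No 2 replicates agreed within sampling noise. On simulated counts for 12325 genes with 200 changed, edgeR recovered 94% of 4-fold and 50% of 2-fold changes, with 6 false calls. The procedure was thus tested on simulated data for the comparison of 3 weeks with 1 week. The simulated counts held no trend with coding length and fewer changed genes than were called here, so these figures may not carry over.

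Members and gene lists were chosen with earlier results of these data known. The text names all members, the largest falls of the list of further pathway genes (none of that list rose), the called genes of the other repair lists and the 3 largest changes of the proliferation list, and a few genes under this rule are not reported here. Of 48 further pathway genes, 46 were found by symbol. TPM values were not used.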

Additional observations from a re-analysis of the deposited data

Results flagged for a closer look

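In 74 groups of 4 values, that is, the RPKM of each of the 37 members at each age, 1 sample lay far from the other 3 by Dixon's test. It was Palb2 in replicate 4 at 1 week, at 0.587 RPKM, with the next value at 0.474 RPKM. The gap was 0.861 of the range of the group, above the 95% critical value for 4 samples. Chance alone marks about 1 in 20 such groups. Without this sample the fall of Palb2 did not pass the threshold (log2 fold change -1.20, edgeR adjusted p = 0.0611).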

How the results depend on the processing

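Of the 27 members called lower, all 27 kept their direction and 21 also their call under each of the 19 other settings that tested them. Brca2, Palb2, Rad51b, H2afx, Rbbp8 and Atr lost it under at least 1, Parp1 gained it under 6, and 0 members were called higher under any. The number of members called lower was 19 to 28. The lowest, 19 (17.0% of all genes tested then), came with at least 10 reads in every sample, which tests only 29 of the members and moved their median to -0.96, and limma on log2(RPKM + 1) moved the median to -0.90, since the pseudocount understates the change of low genes. Leaving out each sample in turn gave 23 to 28 members lower, against 12.7% to 20.8% of all genes tested then, medians from -1.51 to -1.17, and 3015 to 4861 genes changed in either direction of 12741 to 12820 tested. Values near 0 changed sign. Trp53bp1 was at 0.0051 with DESeq2 and 0.16 with the preparation block, and Mus81 at -0.10 with limma on log2(RPKM + 0.1), -0.077 on log2(RPKM + 1) and -0.10 with the preparation block. With samples left out in turn, Trp53bp1 ranged from -0.22 to 0.17, Xrcc3 from -0.27 to 0.080 and Mus81 from -0.079 to 0.34. The cause was not tested.

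Samples that share a replicate number did not all deviate together (correlations from -0.23 to 0.25). By the numbers taken as shared preparations, replicates 1 and 4 are each the same preparation at both times (correlations -0.23 and 0.25). Replicate 3 at 1 week shares its number with replicate 2 at 3 weeks (0.20), so the replicate numbers pair the samples only in part. The highest correlation, 0.42, was between replicate 1 at 1 week and replicate 3 at 3 weeks, whose preparation numbers differ. That the numbers mark preparations was not tested. With the replicate block, 2867 genes were called against 4127, 2807 of them under both, and 24 members fell (12.4% of all tested genes), with H2afx, Brca2 and Rad51b lost. For the ratio of Rad51d to Xrcc2, a limma fit with the block, which changes both the test and the block, gave a difference of 1.80 (adjusted p = 0.00986). With the preparation block, 3109 genes were called and 25 members fell (14.2% of all tested genes). With samples left out in turn, the differences of log2 ratios that changed sign ranged from -0.35 to 0.18 for Brca2 over Palb2, -0.28 to 0.66 for Brca1 over Brip1, -0.33 to 0.22 for Nbn over Rad50, -0.40 to 0.33 for Chek1 over Clspn and -0.11 to 0.17 for Atr over Topbp1. The mean intron share fell from 32.6% to 1.68% at 1 week and from 37.7% to 2.67% at 3 weeks once Rbbp8 was left out. In the bases before the start alone, TTTCCCGC was in 4 promoters and not 6. 8 members had under 10 reads in at least 1 library, which limits the precision of their folds.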
